A study of Drosophila melanogaster with 4 samples.

Results

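The peaks described here are the Atonal-GFP peaks on the left arm of chromosome 2 (2L) of Drosophila melanogaster, from the tip of the arm to position 21000000. They were chosen by position alone, as the peaks of 2L that start below 21 Mb, with every score kept, and the separate heterochromatin sequence 2LHet was left out. The rule gave 226 of the 3280 peaks of the deposited list (6.89%) and 226 of the 390 peaks of 2L (57.9%). The study precipitated chromatin from brains of L3 larvae, the last larval stage, of a knock-in line that carries ato:GFP and was kept at 25 °C. It had 2 libraries made with anti-GFP and 2 input libraries without antibody, and the labels give 400 brains, with 10% of the sonicated volume as input. The larvae were untreated, and the input libraries came from the same ato:GFP genotype, so the labels name no line without the tag. Whole brains were used, in which many cell types are pooled.

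Atonal is a proneural transcription factor of the basic helix-loop-helix class. Such factors bind DNA as dimers with the partner Daughterless at short motifs called E-boxes and start neural fate in the cells that express them. In the fly Atonal is known for founding the R8 photoreceptors of the eye and the chordotonal stretch organs, and in the larval brain it is expressed in parts of the developing optic lobe and in a cluster of neurons that project to the visual centres. The anti-GFP precipitation used here recovers DNA bound by, or crosslinked near, the tagged protein. Peaks were listed by the authors with a start, an end and a whole-number score. The scale of the score is not given, so it is used here to rank peaks, except in Pearson's r, which takes scores as amounts. The list gives 1 value per peak and none per library. Spread between the IP libraries, enrichment over input and read depth were therefore not analysed here, and no difference below is tested against replicate error. Positions are counted from 1 on the release 5 sequences, to which the sequence names ending in Het belong. No genome or annotation of that release was used here, so genes near the peaks and E-boxes within them were not analysed.

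The 226 peaks were short and thinly spread. They covered 28.3 kb in all, which is 0.135% of the stretch, at 10.8 peaks per Mb. Their median width was 105 bp: the quartiles were 85.3 and 140.5 bp, the narrowest had 71 and the widest 547 bp, and 102 of them (45.1%) were narrower than 100 bp. Their median score was 23: the quartiles were 16 and 30, and scores ran from 13 to 96. The lowest score that occurs anywhere in the list, 13, was carried by 17 peaks (7.52%, 95% Wilson interval 4.75 to 11.7%, which covers counting error only). In the whole list 288 of 3280 peaks (8.78%) carried it, a share within that interval. The first peak began at 354093, so the tip of the arm up to there held no call.

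Peaks were unevenly spread along the arm. The 21 bins of 1 Mb held 10.8 peaks on average (SD 5.79 over bins), with a median of 10 and a range from 2 to 26. The bin from 20 to 21 Mb held most, with 26 peaks or 11.5% of the 226. The bins of 11 to 12 Mb and 17 to 18 Mb followed, each with 18 peaks. At the other end, the bin from 1 to 2 Mb held 2 peaks, and those from 0 to 1, from 5 to 6 and from 19 to 20 Mb held 4 each. The bin with 26 peaks thus lay next to one with 4. The other emptiest bins lay in the first 6 Mb, whereas the fullest bins named here all lay from 11 Mb on. Without the bin from 20 to 21 Mb the mean was 10 peaks (SD 4.74).

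In steps of 7 Mb from the tip, the arm held 7 peaks per Mb up to 7 Mb, 12.1 from 7 to 14 Mb and 13.1 from 14 to 21 Mb. The median score hardly moved with this, at 23, 21 and 23 over the same 3 stretches. The median width was 108, 106 and 103 bp. Peaks nearer the tip were therefore fewer, but by these medians neither lower in score nor narrower by more than these few units. The upper quartile of score was 35 up to 7 Mb and 29 in each of the other stretches. Median scores of the 1 Mb bins ran from 16 to 40, the highest in a bin of 2 peaks. No test was made of these differences, because neighbouring peaks of 1 list are not independent.

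**Figure D1:**
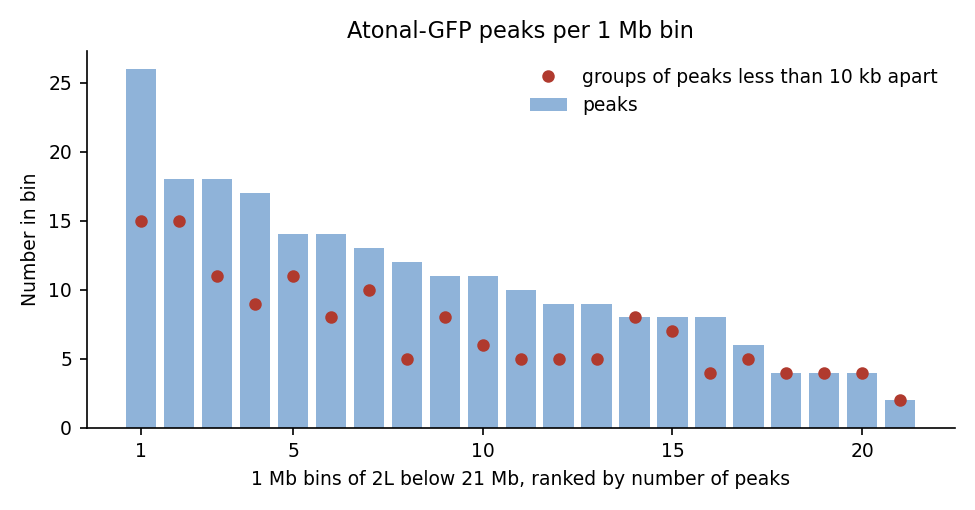
Peaks in each of the 21 bins of 1 Mb of 2L below 21 Mb, ranked by number of peaks. Bars give the peaks (2 to 26 per bin) and points the groups of peaks less than 10 kb apart (2 to 15 per bin), so that the fullest bin, with 26 peaks, has as many groups (15) as the second bar, that of 17 to 18 Mb.

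Most windows of 100 kb held no peak or a single peak. Of 210 such windows, 95 (45.2%) held none, 58 (27.6%) held 1 and 29 held 2. Only 2 windows held 9 peaks, the highest number: those from 4600001 to 4700000 and from 20100001 to 20200000. Their scores differed, with a median of 21 in the first and 41 in the second. The third window, from 3200001 to 3300000, held 6 peaks with a median score of 41. These windows were picked after their values were seen.

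Between neighbouring peaks the median gap was 36.5 kb, with quartiles of 4.80 and 123.1 kb. Of the 225 gaps, 21 were under 1 kb, 54 lay from 1 to 10 kb, 81 from 10 to 100 kb and 69 were of 100 kb or more. The longest gap, 918.6 kb, ran from 3681634 to 4600222. Next were 815.1 kb from 8505925 to 9321073 and 693.8 kb from 1111572 to 1805364. The longest gap ended at the window of 9 peaks near 4.6 Mb, so 1 of the fullest windows of the arm lay directly beside its emptiest stretch. A total of 27 peaks had no other peak within 100 kb.

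Peaks less than 1 kb apart, called a run here, were less common on this stretch than in the whole list. In the whole list, 42.2% of the 3280 peaks had another peak within 1 kb. On 3L without its last 2 Mb it was 17.0% and on 3R 20.6%, so few runs are not particular to this stretch. Of the 226 peaks, 37 (16.4%, Wilson interval 12.1 to 21.8%) lay in 16 runs. That interval treats peaks as independent, but the peaks of a run come together, so it is too narrow. Of these runs, 12 were pairs, 3 held 3 peaks and 1 held 4, and 189 peaks stood alone at this distance. With 10 kb as the distance, the 226 peaks formed 151 groups, of which 108 were single peaks. The largest groups held 7 and 6 peaks, and 6 groups held 4. The scores of peaks in runs were like those of single peaks, with a median of 23 for each, but their widths were not: the median was 157 bp in runs and 101 bp for single peaks. Leaving out the run of 4 gave 151 bp.

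The run of 4 peaks lay at 3257062 to 3259014, a stretch of 1953 bp of which the peaks covered 76.0%. Its peaks were 313, 313, 312 and 547 bp wide, with scores of 38, 37, 19 and 59. The gaps between them were 254, 98 and 116 bp. Towards the tip of the arm, a peak of 141 bp and score 44 (3255396 to 3255536) followed after a gap of 1525 bp, and one of 379 bp and score 56 (3251587 to 3251965) after a further gap of 3430 bp. The group of 6 spanned 7428 bp. This group held 5 of the 10 widest peaks of the stretch, and 3 of the 16 with the highest scores. Both the widest peak of the stretch and the second widest were among those 3. The list cannot show whether the 4 close calls are separate sites or pieces of 1 wide one.

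The remaining widest peaks lay elsewhere and, with 1 exception, had scores of 30 or less. They were peaks of 348 bp at 20217436 to 20217783 (score 22), 300 bp at 19154930 to 19155229 (score 26), 295 bp at 11547640 to 11547934 (score 30), 271 bp at 6736457 to 6736727 (score 38) and 266 bp at 11540680 to 11540945 (score 19). The peaks of 295 and 266 bp belonged to the same group of 3 peaks, which spanned 7255 bp.

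The rule named the 15 peaks with the highest scores, and a tie at score 43 made it 16 peaks. Of these 16, 5 lay between 20.1 and 20.3 Mb, an interval drawn after the values were seen that held 14 of the 226 peaks. A further 3 lay in the group of 6 near 3.25 Mb, and the other 8 lay elsewhere. A narrow peak of 91 bp at 20115998 to 20116088 had the highest score, 96, and its nearest neighbour lay 34754 bp away. In the whole list that score ranked 46th. No peak of the stretch reached 100, a score that 37 of the 3280 peaks of the list (1.13%) reached.

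The 14 peaks between 20.1 and 20.3 Mb spanned 166.1 kb. Their scores ran from 15 to 96 with a median of 25, against a median of 23 for the other 212 peaks. Beside the peak of score 96, the high ones were 66 at 20208812 to 20208891 (80 bp), 58 at 20150843 to 20151098 (256 bp), 49 at 20189295 to 20189408 (114 bp) and 47 at 20177096 to 20177222 (127 bp). Of the 14 peaks, 7 (50%) had scores above 25, the median of the whole list, as did 77 of the other 212 peaks (36.3%). Because the interval was drawn around the highest score, neither the medians nor these shares can show that scores are raised there. The interval held the largest group of the stretch, 7 peaks from 20177096 to 20196328. Their scores were 47, 27, 22, 41, 49, 15 and 22 in order of position. These 7 peaks covered 3.95% of the 19233 bp they spanned, at 72 to 149 bp each, whereas the group of 6 near 3.25 Mb, joined at the same distance, was covered to 27.0%. The 12 other peaks of the bin from 20 to 21 Mb lay outside this interval.

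**Figure D2:**
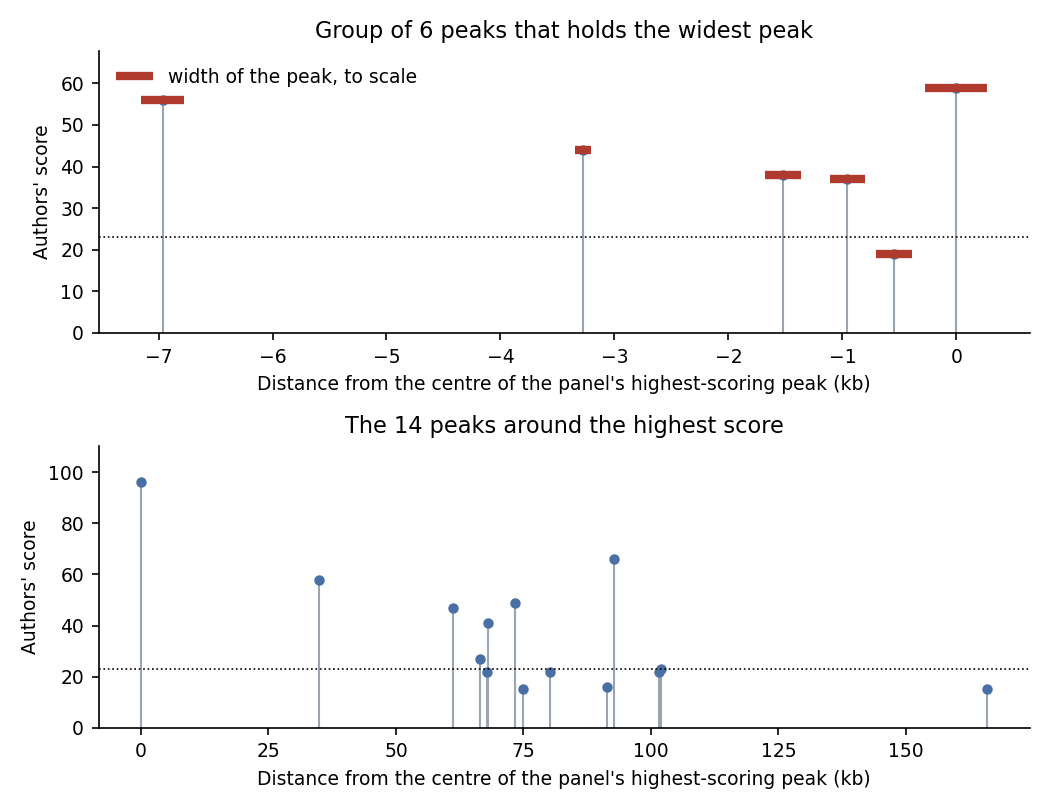
Authors' score of each peak against its distance, in kb, from the centre of the highest-scoring peak of the panel. The upper panel shows the group of 6 peaks with the widest peak (547 bp, score 59), where red bars give the widths to scale; the lower panel shows the 14 peaks around the highest score, 96. The dotted line is the median score of the 226 peaks, 23.

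The other 8 of the 16 highest scores were scattered over the arm. They were 83 at 12565304 to 12565392 (89 bp), 68 at 8023344 to 8023420 (77 bp), 55 at 1111492 to 1111572 (81 bp) and 52 at 4645119 to 4645266 (148 bp). Lower ones were 48 at 17306579 to 17306666 (88 bp), 46 at 3681531 to 3681634 (104 bp) and the pair with score 43, at 2117806 to 2117981 (176 bp) and 16512055 to 16512168 (114 bp). Some stood far from any other call: the nearest peak was 246878 bp from that of score 55 and 199048 bp from that of score 46. Others had neighbours of much lower score. The peak of score 68 closed a group of 4 whose other scores were 13, 13 and 24. The peak at 2117806 lay 89 bp, the smallest gap of the stretch, from one of score 13.

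A high score did not require a wide peak. Of the 16, 6 were narrower than 100 bp, among them the 4 with the highest scores, at 91, 89, 77 and 80 bp. Another 6 were wider than the upper quartile of 140.5 bp. Over the 226 peaks, which all come from 1 list and share its calling, Spearman's rho between score and width was 0.10 and Pearson's r 0.20. Among the 189 single peaks rho was 0.08 and r 0.14, and without the groups of 4 or more peaks, which leaves 189 peaks as well, rho was 0.08 and r 0.11. The value of r thus rested in part on the peaks of these groups, whereas rho hardly moved. Pearson's r also takes the scores as amounts, although their scale is not given. The relation was seen mainly at the wide end. The 57 peaks of 141 to 547 bp had a median score of 27, and 52.6% of them exceeded 25, as did 37.2% of all 226 peaks. The 57 peaks of 71 to 85 bp had a median of 23, the 57 of 86 to 105 bp 18 and the 55 of 106 to 139 bp 21, and the shares above 25 were 33.3%, 28.1% and 34.5% in the same order. The 21 peaks of 200 bp or more had a median score of 30.

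**Figure D3:**
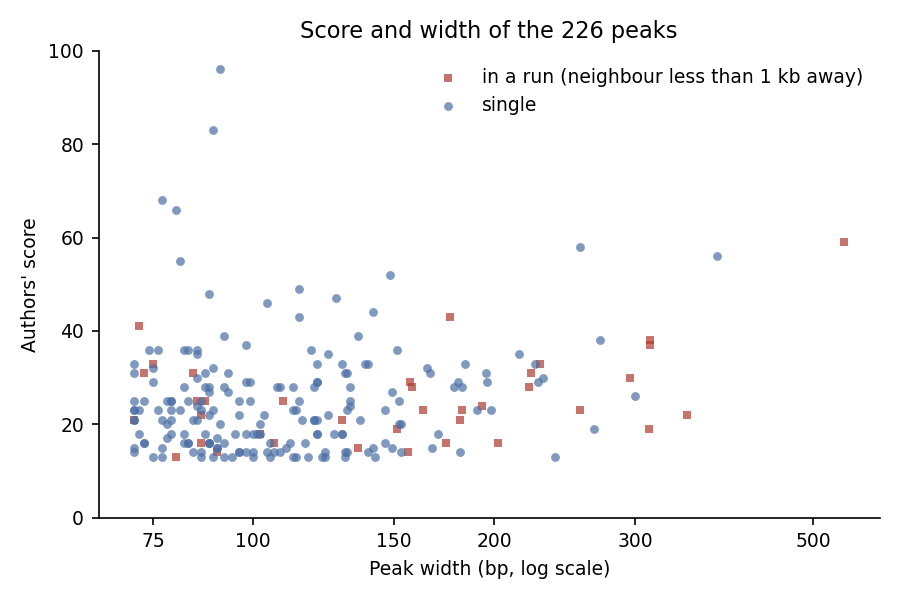
Authors' score against width (bp, log scale) for the 226 peaks, with the 37 peaks in runs as red squares and the 189 single peaks as blue circles. The 4 highest scores sit at widths of 77 to 91 bp, and the widest peak, of 547 bp, has a score of 59.

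The last 3 peaks inside the limit at 21 Mb had scores of 15, 18 and 33, at 20902497, 20962310 and 20981120. The first 3 outside had scores of 21, 21 and 24, at 21063143, 21128831 and 21226844. The bin inside the limit held 26 peaks and the bin from 21 to 22 Mb 51, and density was 10.8 peaks per Mb below 21 Mb and 82.6 from there on. The share of peaks with another within 1 kb was 16.4% below 21 Mb and 44.5% (Wilson interval 37.1 to 52.2%) among the 164 peaks from there on. This interval is also too narrow, because the peaks of a run come together. The median scores were 23 below the limit and 22 from it on, and the highest scores 96 and 132.

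The stretch was set beside 3L and 3R, where typical peaks had similar widths and scores. The widest and the highest-scoring peaks differed, but each such extreme is 1 peak, and the sets differ in size (226, 265 and 335 peaks). 3R was taken whole, whereas 2L and 3L were cut, so the sets are not alike. What this adds to the differences was not tested. Width had a median of 105 bp here, 106 bp on 3L without its last 2 Mb and 102 bp on 3R. The median score was 23 on each. The widest peak had 547 bp here, 1188 bp on 3L without its last 2 Mb and 1737 bp on 3R, and the highest score was 96 here, 483 on that part of 3L and 530 on 3R. Density was 10.8 peaks per Mb here, 11.8 on 3L without its last 2 Mb and 12.1 on 3R, and the share of peaks with another within 1 kb was 16.4%, 17.0% and 20.6% in the same order. The shares of high scores were less alike than the median scores. Scores of 50 or more were held by only 9 peaks here (3.98%), 14 on 3L without its last 2 Mb (5.28%) and 19 on 3R (5.67%). The share was 9.15% on 2L from 21 Mb and 11.5% in the whole list. Of the 226 peaks, 23 (10.2%, Wilson interval 6.88 to 14.8%) had scores of 37 or more, the highest of 4 classes split at the quartiles of the whole list. The share was 14.0% (10.3 to 18.7%) on 3L without its last 2 Mb, 15.8% (12.3 to 20.1%) on 3R, 20.7% (15.2 to 27.6%) on 2L from 21 Mb and 24.5% (23.0 to 26.0%) in the whole list, which includes the 226. The intervals of the 226 and of 3L and 3R overlap, and with 1 list no test of these differences against replicate error could be made. Scores of 100 or more were held by 0 of the 226 peaks, which allows a share of up to 1.33% (3 counts of 226, counting error only). They were held by 3 of 265 on 3L without its last 2 Mb, 6 of 335 on 3R and 4 of 164 on 2L from 21 Mb. In the whole list 37 of 3280 peaks (1.13%) held such scores, a share below the 1.33%.

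**Figure D4:**
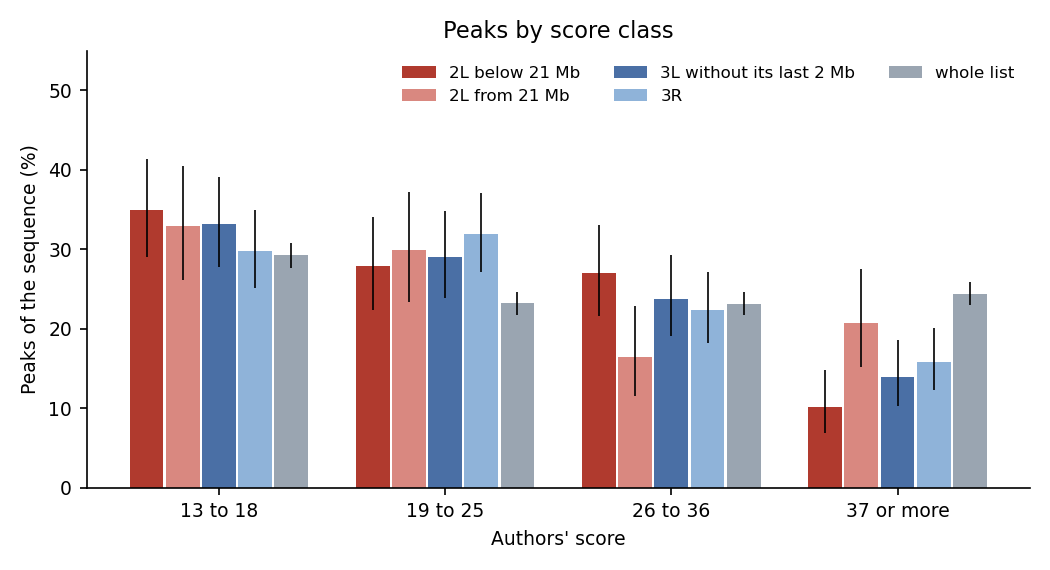
Share of peaks (%) in 4 classes of the authors' score for 2L below 21 Mb, 2L from 21 Mb, 3L without its last 2 Mb, 3R and the whole list, with 95% Wilson intervals (counting error only). At 37 or more the 226 peaks of 2L below 21 Mb have the shortest bar, 10.2%, and the whole list the tallest, 24.5%.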

How the data were processed

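Chromatin immunoprecipitation with sequencing was applied to 2 anti-GFP and 2 input libraries. Per the submitters' processing notes, Bowtie2 2.2.1 was the aligner. The sources used here name no caller, threshold, control or genome build, and do not say whether replicates were pooled. The authors deposited 1 peak list with a whole-number score per peak, on a scale that is not given. The list has no value per library, so depth is not known here.

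Peaks of 2L with a start below 21 Mb were taken, and starts were converted to positions counted from 1. Counts per bin of 1 Mb and window of 100 kb (by peak start), gaps, runs (neighbours less than 1 kb apart) and groups (less than 10 kb) were computed with Python 3.11.15, pandas 2.3.3 and scipy 1.17.1, and checked on simulated data. The comparison stretch of 3L stops about 2 Mb before its last peak. The length of 3R, and of 2L from 21 Mb, ends at its last peak. Shares have 95% Wilson intervals for counting error only. They treat peaks as independent, so for shares of peaks in runs they are too narrow. No p-values were computed.

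Peaks were named by rule: the 15 highest scores with ties, the 10 widest, runs of 4 or more, the 3 fullest and 3 emptiest bins with ties, the 3 longest gaps, and 3 peaks on each side of the limit. The stretch and these rules were chosen with earlier results of these data known. A planned analysis of E-boxes, nearest genes and peak sequences needs release 5 of the genome and was not run. Alternatives covered stricter scores, other limits, merged peaks and other run distances.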

Additional observations from a re-analysis of the deposited data

How the results depend on the processing

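Of 38 values recomputed under the alternatives, 28 stayed within the 95% interval of the reported value or, for density and number of runs, within 1.5 times it, and 10 did not. With only the scores above 25, the density was 4 peaks per Mb, the median score 32.5, the median width 119.5 bp, the share of peaks with another within 1 kb 8.33% and the number of runs 3. Fewer peaks and a higher median score follow from that setting itself, and the cause of the greater width was not tested. Counting peaks less than 10 kb apart once gave a median width, then a span, of 122 bp. The density at that setting was 7.19 per Mb against 10.8, which only just stayed within 1.5 times. With the limit at 22 Mb the fullest bin held 18.4% of the peaks, because that bin is the one from 21 to 22 Mb. A run distance of 500 bp gave a share of 11.5% and 12 runs, and 2 kb gave 26.1% and 25 runs, against 16.4% and 16 runs at 1 kb. The share cannot fall as the distance widens, whereas the number of runs could. The interval of the share at 1 kb, the yardstick for these shares, is too narrow because peaks of a run come together. The share at the lowest score has no value where those peaks are left out. No paired analysis was possible because the list has no values per library, and for the same reason no replicate could be left out.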
